A study of Mus musculus with 9 samples.

Results

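Untreated OB-6 cells, a mouse line of osteoblastic character that originated in bone marrow stroma, were represented by the 3 arrays labelled 0 min of parathyroid hormone (PTH). These are 3 of the 9 arrays of a study that also measured the line at 30 and 60 min of PTH, with 3 arrays at each time. All 9 arrays carried total RNA from this 1 line, and no culture kept for 30 or 60 min without hormone was analysed here. Replicates are called a, b and c as in the labels, which do not say whether they came from separate cultures, so the spread between them may be technical. The sources used here do not give the PTH dose, the culture state or the passage. As every array holds RNA of a whole culture, fewer cells of a type and less RNA per cell cannot be told apart.

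Osteoblasts build bone by secreting type I collagen, which is trimmed, cross-linked and packed with proteoglycans outside the cell, and by then depositing mineral in it. They also direct bone resorption through secreted factors such as the cytokines that govern osteoclasts. PTH reaches them through the receptor Pth1r, which couples to G proteins that raise cAMP or activate phospholipase C.

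Each array gave 1 linear intensity for each of 12422 probe sets, groups of short oligonucleotides that are read together as a single value, after 66 control sets were left out. Median intensity was 84.9, 82.7 and 86.2 in replicates a, b and c, and correlations between these 3 arrays lay between 0.982 and 0.984. Correlations of the untreated arrays with the 30 min arrays were 0.966 to 0.979 and with the 60 min arrays 0.943 to 0.977, the lowest being with 60 min replicate b. The ratio of the 3′ to the 5′ control probe set of Gapdh was 0.702 to 0.859 at 0 min, and that of Actb 0.341 to 0.809. The number of arrays limits the precision of every value.

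A probe set's intensity depends on its own oligonucleotides as well as on its transcript. The ranks given here are therefore ranks of signal, not of transcript amount. A background limit was set at an intensity of 101, the 90th percentile of 114 probe sets for 96 genes of remote organs such as the eye, the pancreas and the testis. The median of that panel was 14.9, whereas the 15 controls made for the opposite strand had a median of 26.3 and a maximum of 80.2. A gene counted as above the limit when all 3 untreated arrays of its brightest probe set exceeded 101. By this measure 4359 of 8251 named genes, or 52.8%, were above it, as were 5513 of 12422 probe sets, or 44.4%. Of the panel genes 10 of 96 were above, a share that the choice of limit largely fixes, among them the pancreatic elastase gene Cela1 at 528, 541 and 563. A gene not above the limit may still be transcribed.

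**Figure D1:**
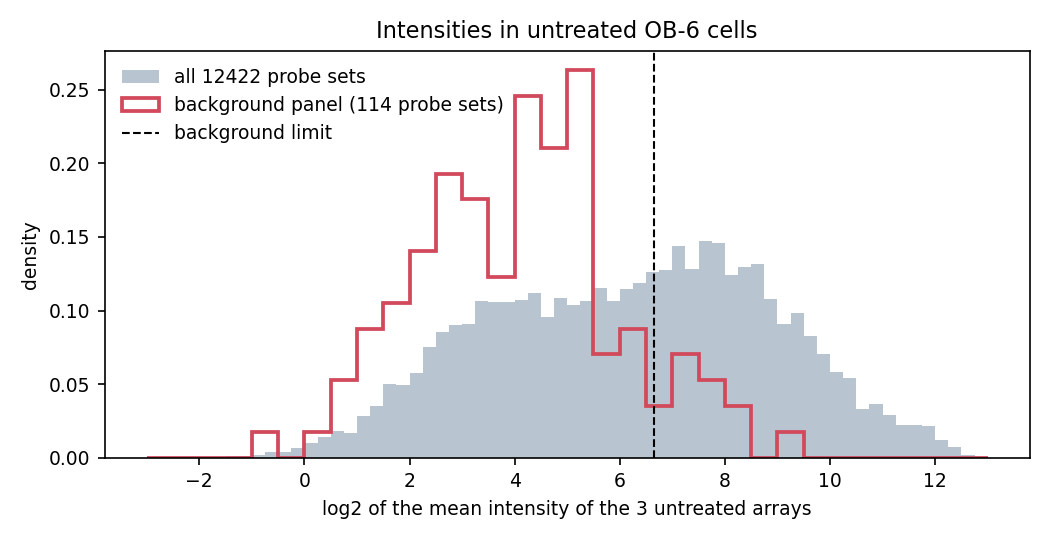
Distribution of log2 mean intensity over the 3 untreated arrays, as density, for all 12422 probe sets (grey) and the 114 probe sets of the remote-organ panel (red line), with the background limit of 101 dashed. All probe sets spread well past the limit, while the panel, with a median of 14.9, lies mostly to its left.

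Some matrix genes were among the brightest of the line. All 6 genes taken as osteoblast markers were above the limit on all 3 arrays, as were 52.8% of all named genes. The count of so few chosen genes does not establish a cell type. Col1a2, the alpha-2 chain of type I collagen, was at 5039, 5607 and 5511, the eighth brightest gene of all. Col1a1, the alpha-1 chain, was at 3318, 3083 and 5025. The proteoglycan gene Bgn was at 3992, 4570 and 4427. These 3 were bright on every array, with Col1a1 alone standing clearly higher in replicate c. Its other probe set read 1314, 1391 and 1375, without that difference. Omd, osteomodulin, a keratan sulfate proteoglycan of mineralized matrix, was at 2336, 2006 and 1906. Mmp13, the collagenase of osteoblasts and hypertrophic cartilage, was at 3608, 3509 and 2951. Tnfrsf11b, which encodes osteoprotegerin, the decoy that binds RANKL, was at 376, 466 and 453. All 6 markers were thus read in untreated cells, although other genes of the lineage described further on, among them Dmp1, Phex and Vdr, were not above the limit.

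Among the 20 brightest genes, 6 encode ribosomal proteins, and 14 do so among the brightest 100. Rpl7, a large-subunit protein, led at 5906, 6308 and 6252, through a probe set designed to be shared by several transcripts. Actg1, cytoplasmic gamma actin, followed at 5693, 6230 and 5980. The neutrophil-attracting chemokine Cxcl5 came next, at 6022, 6195 and 5584. It was bright on every array. Fth1, the ferritin heavy chain that stores iron, was at 5630, 6221 and 5611. Serpinf1, pigment epithelium-derived factor, a secreted collagen-binding serpin that inhibits vessel growth, was at 4784, 5290 and 5286. Lgals1, the galactose-binding lectin galectin-1, was at 4312, 5149 and 5439. The others of the top 20 were Rps4x, Rps10, Rps3a1, Rps28, Rps7, Gnai2, Tpt1, Csrp2, Hmgn1, Nme2, S100a6, Arf1 and Dynll1. The brightest 100 included 4 collagen genes and 4 genes of secreted signalling factors, and 15 of the 100 were read through shared probe sets.

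**Figure D2:**
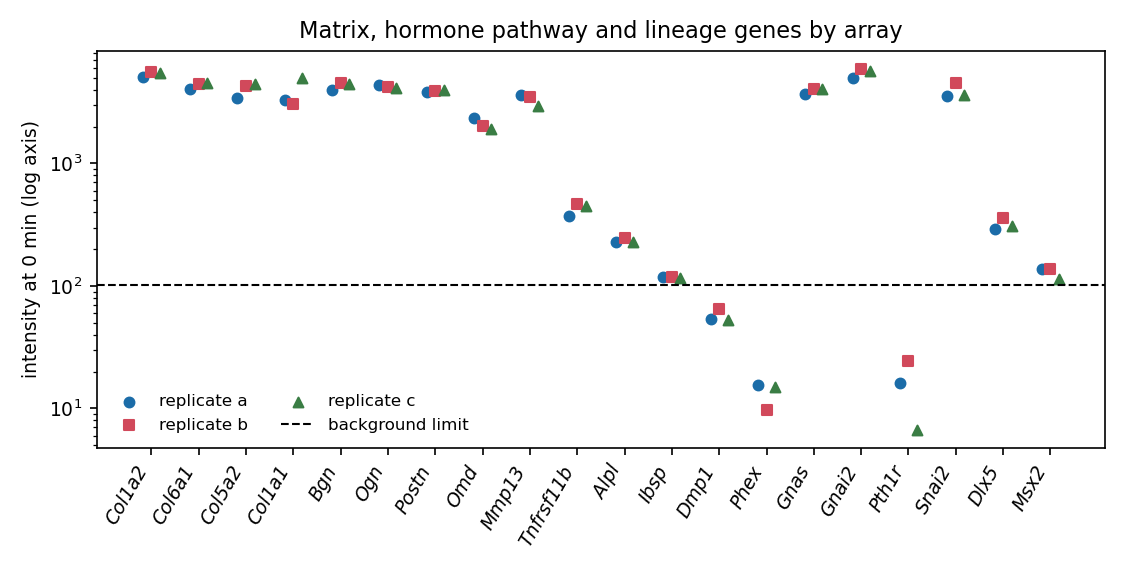
Intensity at 0 min (log axis) of 20 genes on the untreated replicates a (circle), b (square) and c (triangle), with the background limit dashed. The matrix genes at the left lie at 1906 or more on every array, the mineralization genes Alpl and Ibsp lie nearer to the limit, and Pth1r, Dmp1 and Phex lie under it.

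Of 29 measured collagen genes 17 were above the limit, 58.6%, close to the 52.8% of all genes, so the count alone sets nothing apart. Their median intensity was 158, against 133 over all genes. Col6a1, a chain of the beaded type VI filament, was at 4026, 4417 and 4513, and Col6a3 of the same filament at 3017, 2927 and 3066. Col5a2, of the type V collagen that nucleates type I fibrils, was at 3454, 4255 and 4442. Col11a1, a fibril collagen also found in cartilage, was at 2356, 2414 and 2213. The cartilage genes Col2a1 and Col10a1 were below the limit on all 3 arrays, with means of 8.57 and 26.1.

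Genes for collagen processing were above the limit almost throughout, 13 of 14, or 92.9%, against 52.8% of all genes. Their median intensity was 1046. Pcolce, which speeds removal of the collagen C-propeptide, was at 3399, 4073 and 3643. Serpinh1, the collagen chaperone Hsp47, was at 3563, 3409 and 3488. Lox, the enzyme that starts collagen cross-linking, was at 3473, 3322 and 3669 by 1 of its 2 probe sets, the other being below the limit. In these 3 genes no array stood apart. Sparc, a collagen-binding matricellular protein of bone, was at 3704, 3505 and 2959, and Crtap, part of the prolyl 3-hydroxylase complex, at 2636, 2731 and 2757. Loxl1 was the member not above the limit, at 57.6, 68.5 and 53.4.

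Of the matrix glycoproteins and proteoglycans 23 of 40 were above the limit, 57.5%, again near the share of all genes. Ogn, osteoglycin, was at 4366, 4223 and 4110. Postn, periostin, an adhesive protein of periosteum, was at 3851, 3872 and 3976. Thbs2, a thrombospondin that modifies collagen fibrils, was at 2195, 2186 and 1875. All 3 were even across the arrays by their brightest probe sets. The other probe set of Ogn, also above the limit, was uneven at 3402, 2583 and 1946. Tnc, Lum, Fmod and Eln, which encode tenascin C, lumican, fibromodulin and elastin, were not above the limit, with means of 28.4, 69.9, 89.3 and 88.1.

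The promoters of 3 of these bright matrix genes are printed because they show both states of the letters TATAAA, the core of the TATA box. Each sequence is the 80 bases directly before the RefSeq transcription start (GRCm38.p6), written 5′ to 3′ on the gene's strand. Capitals mark TATAAA, searched on the gene's strand with its first base 45 to 20 bases before the start. Postn has 2 listed starts, and the second is shown at chr3:54361027-54361106 on the plus strand. Bgn lies at chrX:73483521-73483600 on the plus strand, and Col1a2 at chr6:4505538-4505617 on the plus strand.
Postn: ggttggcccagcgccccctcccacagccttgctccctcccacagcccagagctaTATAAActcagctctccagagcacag
Bgn: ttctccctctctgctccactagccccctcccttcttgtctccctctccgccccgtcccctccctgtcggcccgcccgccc
Col1a2: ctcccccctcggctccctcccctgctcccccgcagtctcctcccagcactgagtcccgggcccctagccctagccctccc
In Postn the motif begins 26 bases before the second start, and the first start has none. Neither Bgn nor Col1a2 holds it in this window before the listed start. Which starts these cells use was not tested, and TATAAA outside the window would be missed.

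Over all 32851 RefSeq promoters, 2.14% held TATAAA in that window. The share was 1.38% of 4623 promoters of genes above the limit and 4.35% of 3789 promoters of measured genes not above it. Among the brightest 100 genes it was 5 of 96 promoters, and among collagens above the limit 0 of 17. The CG dinucleotide was counted over 300 bases, from 250 before to 50 after the start. Its median was 22 in promoters of genes above the limit and 12 in those not above it. For the collagens above the limit the median was 10, and for the glycoproteins above it 9.5. Promoters of the remote-organ panel had a median of 4, and 21% of them held TATAAA. Genes without an entry among the promoters were not counted, and these matches are descriptions of letters only.

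Genes of mineralization and of the osteocyte were above the limit in 6 of 13 measured members, 46.2%, near the 52.8% of all genes. Besides Omd these were Ank, which exports pyrophosphate (720, 652 and 624), Mgp, the matrix Gla protein that inhibits calcification (330, 396 and 361), and the phosphate transporter Slc20a1 (369, 358 and 329). Alpl, the alkaline phosphatase that frees phosphate for mineral, was at 227, 245 and 230. Ibsp, bone sialoprotein, was at 119, 118 and 115, and its other probe set was below the limit. Values of Alpl and Ibsp were tight, and the lowest value of Ibsp was little over the limit. The osteocyte genes Dmp1 (53.4, 64.7 and 52.9) and Phex (15.6, 9.70 and 14.9) were below it on every array. Spp1, Bglap, Sost and Mepe were not analysed here, as no probe set carried their symbol alone.

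Matrix proteases were above the limit in 14 of 28 members, 50%, near the 52.8% of all genes. After Mmp13 the brightest were the lysosomal cathepsins Ctsl (2769, 2623 and 2623), Ctsb (2553, 2823 and 2634) and Ctsd (1411, 1186 and 1626). Mmp14, the membrane-bound collagenase, was at 1202, 1363 and 1210, and the stromelysin Mmp3 at 752, 742 and 678. The gelatinase genes Mmp2 and Mmp9 had no probe set above the limit, with means of 22.2 and 11.1. Among protease inhibitors 7 of 13 were above, 53.8%, although only 3 had all their probe sets above. They included Cst3, the cathepsin inhibitor cystatin C (4199, 4345 and 4708), Timp1 (3478, 3926 and 3918), Timp2 (1970, 2023 and 2051) and Slpi (958, 974 and 1041). Timp3, which stays bound to matrix, was at 3265, 2449 and 1950, the replicates being spread more than for the other Timp genes.

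For the PTH receptor step itself the arrays gave uneven signals. Pth1r, the receptor, was at 16.1, 24.3 and 6.70, below the limit on all 3 untreated arrays. It stayed below on the 30 min arrays (41.6, 33.9 and 27.9) and on the 60 min arrays (33.0, 9.70 and 27.7), and it did not pass the filter for testing. Gnas, the stimulatory G protein alpha subunit that raises cAMP, was at 3712, 4056 and 4073 through a probe set shared by several transcripts, while its other 2 probe sets lay below the limit. Gna11, a subunit that activates phospholipase C, was at 324, 330 and 272, and its relative Gnaq at 43.2, 46.9 and 30.3. Of these 4 genes, then, Gnas and Gna11 were above the limit, and Pth1r and Gnaq were not. A single probe set reported Pth1r, and whether it detects the transcript was not tested.

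Downstream, 24 of 47 members of the PTH and cAMP list were above the limit, 51.1%, near the 52.8% of all genes. Gnai2, an inhibitory alpha subunit, was at 4980, 5927 and 5693 by a shared probe set, and its other 2 were also above. Gnb2, a beta subunit, was at 2379, 2361 and 2539. Prkar1a, a regulatory subunit of protein kinase A, was at 2323, 2335 and 2277. These were steady, with Prkar1a the most even of the 3. Gnai3 was at 1923, 1747 and 2088 and the phospholipase gene Plcb1 at 1239, 1333 and 1394. Creb1, the cAMP-responsive transcription factor, was not above the limit, at 80.4, 97.8 and 86.1.

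Growth factor and cytokine receptors were above the limit in 27 of 53 members, 50.9%, near the 52.8% of all genes. Osmr, the oncostatin M receptor, was at 1184, 1181 and 1109, and its partner Il6st (gp130) at 865, 927 and 825. Igf1r was at 836, 827 and 765, and Fgfr2 at 718, 620 and 771. The platelet-derived growth factor receptor Pdgfra was at 727, 716 and 649 by 1 of 3 probe sets. Both parts of the oncostatin M receptor pair were thus steady over the arrays. Csf3r, the granulocyte factor receptor, was at 535, 719 and 733 by 1 of 3 probe sets, the other means being 12.9 and 9.10. Receptors of the TGF-beta, BMP, Wnt and Notch families were above in 20 of 38, 52.6%. Lrp1, a large endocytic receptor, was at 2447, 2888 and 2504, the proteoglycan coreceptor Sdc2 at 1825, 2002 and 1725, and Fzd2, a Wnt receptor, at 708, 649 and 742. Tgfbr2, Bmpr1b and the Wnt coreceptor Lrp5 were below the limit, with means of 3.33, 7.33 and 18.5.

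G protein-coupled receptors were mostly dim. Only 8 of 50 were above the limit, 16%, with a median of 18.3, against 52.8% and 133 over all genes, and 14 were above when the limit was the panel's 75th percentile. Ptgfr, the prostaglandin F receptor, was at 1803, 1815 and 1684, and F2r, a thrombin receptor, at 873, 939 and 821. S1pr2 and Lpar1, receptors for lysophospholipids, were at 542, 466 and 493 and at 344, 360 and 322. Ackr3, a scavenger of Cxcl12, was at 492, 457 and 495. These 5 lay clear of the limit on every array. The gastrin receptor gene Cckbr (273, 307 and 298) was also above it.

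Nuclear receptors were above the limit in 13 of 35, 37.1%, against 52.8% of all genes. The thyroid hormone receptor Thra was at 991, 899 and 1024. The retinoid X receptors Rxrb and Rxra were at 854, 667 and 722 and at 651, 599 and 667, and the retinoic acid receptor Rarg at 449, 415 and 412. Nr5a1, a steroidogenic factor of adrenal and gonad, was at 728, 707 and 686 by 1 of 5 probe sets, the rest being below the limit. Several receptors with known actions in bone were not above: Vdr, the vitamin D receptor, at 98.98, 79.5 and 77.9, the glucocorticoid receptor Nr3c1 at 67.8, 69.4 and 66.7, and the estrogen receptor Esr1 at 43.4, 37.9 and 19.1.

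Transcription factors with roles in osteoblasts were above the limit in 38 of 58 members, 65.5%, against 52.8% of all genes. Their median intensity was 249.7. Snai2, a repressor typical of mesenchymal cells, was at 3563, 4507 and 3648. The homeobox gene Prrx2, of limb and skull mesenchyme, was at 2429, 2478 and 2658. Cbfb, the partner subunit of Runx proteins, was at 2175, 2371 and 2162. These led the list together with Ctnnb1, beta-catenin (2385, 2394 and 2557), and the leucine zipper factors Cebpd (1839, 2030 and 2034), Cebpb (1597, 1653 and 1465) and Atf4 (1644, 1515 and 1530). Twist1, which holds back Runx2, was at 343, 326 and 326. Dlx5 and Msx2, homeobox regulators of osteoblast maturation, were at 289, 357 and 308 and at 137, 138 and 115. Runx2 and Sp7 were not analysed here, since no probe set carried either symbol alone.

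Immediate-early genes, which hormones switch on within minutes, were above the limit before PTH in 17 of 26 members, 65.4%, against 52.8% of all genes. Jund, the AP-1 subunit that resting cells keep, was at 3259, 3341 and 3348. Ier3, Klf6 and Dusp1 had means of 864, 799 and 623. Those genes were readable before hormone, while Fos (27.5, 30.8 and 34.4), Egr1 (103, 88.0 and 105) and Nr4a1 (65.6, 29.2 and 37.2) were not above the limit.

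Secreted signalling factors were above the limit in 33 of 78 members, 42.3%, against 52.8% of all genes. Chemokines were prominent among the bright ones. Ccl2, which attracts monocytes, was at 4255, 4312 and 4107, and Cxcl1, which like Cxcl5 attracts neutrophils, at 3838, 3891 and 3288. Cxcl12, which retains blood stem cells in marrow, was at 1194, 1287 and 1128, and all 3 of its probe sets were above. Fgf7, keratinocyte growth factor, was at 2790, 2892 and 3034, and Dkk3, a dickkopf-family protein, at 3132, 3223 and 3293. Csf1, which osteoclast precursors need, was at 1902, 1803 and 1984, and Kitl, stem cell factor, at 1549, 1473 and 1402. Cxcl12 and Csf1 were chosen after their values were seen. All of these were well above the limit on every array. Tnfsf11, which encodes RANKL, was below the limit at 8.30, 4.70 and 16.7, as were Il6 and Vegfa, with means of 12.3 and 57.2.

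Adhesion and surface genes were above the limit in 21 of 41, 51.2%, near the 52.8% of all genes. They were led by the tetraspanin Cd63 (4273, 4240 and 4476), the integrin chain Itgb1 (4197, 4099 and 4127) and Gja1, the connexin of osteoblast gap junctions (3087, 3395 and 2949). Thy1 and Alcam, often used to sort stromal cells, were below, with means of 12.9 and 5.63. Proliferation genes were above in 34 of 44, 77.3%, against 52.8% of all genes, with a median of 283. Ccnb2, a mitotic cyclin, was at 2667, 2532 and 2518, Cdk4 at 2263, 2375 and 2544, Pcna, the replication clamp, at 1771, 1869 and 1677, and Cdk1 at 870, 926 and 1061. S-phase and mitotic genes were thus read side by side in untreated cultures. The cell cycle inhibitor Cdkn2a was below the limit at 54.7, 61.9 and 63.7. The X-inactivation transcript Xist and the Y-linked genes Uty, Eif2s3y and Kdm5d were all below it, with means from 6.30 to 9.44, and so was Sry.

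**Figure D3:**
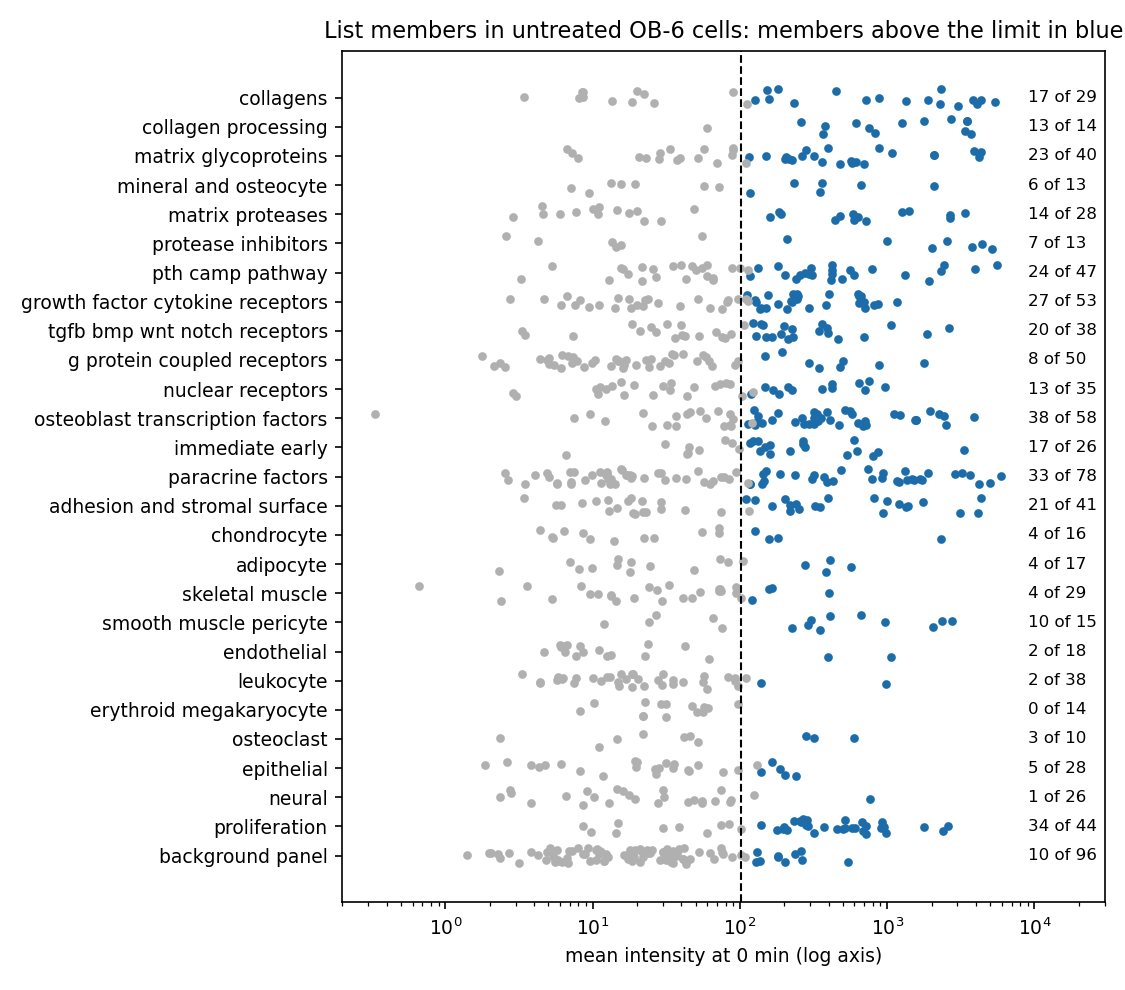
Mean intensity at 0 min (log axis) of each measured member of 26 gene lists and of the remote-organ panel, by its brightest probe set, with members above the limit of 101 (dashed) in blue, others in grey, and their number at the right. Collagen processing (13 of 14) and proliferation (34 of 44) lie mostly above the limit, the leukocyte (2 of 38) and erythroid (0 of 14) lists below it.

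Markers of other lineages were mostly below the limit, with smooth muscle as the exception. Of the smooth muscle and pericyte list 10 of 15 were above, 66.7% against 52.8% of all genes. Cnn2, a calponin also found outside muscle, was at 2902, 2990 and 2348, Acta2, smooth muscle actin, at 2636, 2151 and 2328, and the tropomyosin Tpm1 at 2023, 1857 and 2257. Mylk, the myosin light chain kinase, was at 1039, 874 and 967. Myh11 (15.6, 8.60 and 11.9), Cnn1 and Des were below, Cnn1 and Des with means of 66.2 and 24.2. The list therefore held both bright and dim members, with Acta2 and Mylk among the bright and Myh11, Cnn1 and Des among the dim.

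Blood and vessel markers were nearly all below the limit. Of 38 leukocyte genes 2 were above: Cd14, the lipopolysaccharide coreceptor of monocytes, at 1070, 927 and 931, and Cd68 at 141, 150 and 126 by 1 of 2 probe sets. The pan-leukocyte gene Ptprc had a mean of 5.87 by its brightest probe set. Cd14 was therefore bright on every array where the defining leukocyte gene was not. Summed over the list, leukocyte intensity was 2095 to 2412 per untreated array, to which Cd14 gave the largest single value. None of 14 erythroid and megakaryocyte genes was above. Of 18 endothelial genes 2 were above, Cd34 by both probe sets (1165, 1109 and 907, and 695, 678 and 723) and Eng (357, 428 and 398), with Pecam1 and Cdh5 below at means of 13.4 and 6.07. Whether other cells contributed to Cd14 or Cd34 was not tested.

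Of the osteoclast list 3 of 10 were above the limit: the collagen-degrading cathepsin Ctsk (634, 554 and 607), the proton pump subunit Tcirg1 (351, 324 and 284) and the chloride transporter Clcn7 (289, 271 and 285). Acp5, the tartrate-resistant phosphatase, was below at 41.6, 37.6 and 46.5. Adipocyte genes above were 4 of 17, namely Srebf1, Cebpa, Lep and Dgat1, with means of 568, 408, 387 and 276. Fabp4 (88.7, 74.0 and 84.7), Adipoq (24.0, 14.2 and 16.5) and Pparg (68.4, 88.5 and 64.4) were not. The cartilage list had 4 of 16 above, all of them collagen genes, and Acan, the cartilage proteoglycan, was at 4.40, 8.80 and 6.10. Lep, a product of mature fat cells, was above the limit by 1 of its 2 probe sets, where Fabp4 and Adipoq were not. Its other probe set had a mean of 25.7, and the other probe set of Dgat1 a mean of 25.9. Lep was also among the genes of widest spread.

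Skeletal muscle had 4 of 29 genes above, Actc1 being read by a shared probe set (409, 354 and 449) while its other probe set had a mean of 1.83. Epithelial genes above were 5 of 28, including Trp63 (257, 240 and 226), Cdh1 (194, 215 and 200) and Krt4 (151, 220 and 194). Another probe set of Krt4 was below the limit, with a mean of 8. The simple-epithelium keratin genes Krt8 and Krt18 were below, at means of 26.8 and 26.3. Neural genes above were 1 of 26, Tubb3 at 560, 1042 and 708 by a shared probe set, and 0 when all probe sets of a gene had to be above. Counts for these dim lists moved with the limit. At the panel's 95th percentile 1 leukocyte, 1 skeletal muscle, 1 cartilage and 2 epithelial genes were above, and at its 75th percentile 8, 11, 7 and 8.

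Different probe sets of 1 gene often disagreed on which side of the limit they lay. Of 2073 genes with several probe sets, 1315 had at least 1 above, and of those 885, or 67.3%, also had 1 that was not. Only 430 had all above. A statement that a gene is above the limit thus rests on its brightest probe set.

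The 3 untreated arrays differed little. The median coefficient of variation (SD over mean) of the 5513 probe sets above the limit was 7.26%. It was 9.76% in the lowest 1379 probe sets by intensity and 5.20% in the highest 1378, and 51 probe sets exceeded 30%. The extremes were shared among the arrays: replicate a was highest for 33%, b for 30.7% and c for 36.3% of these probe sets. Probe sets built under relaxed design rules, marked r in their names, had a median of 11%, against 7.13% for those with no mark.

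The 10 genes with the widest spread on the log2 scale were Ica1, Snrp1c-ps2, Cyp4v3, Sh3bp1, Psd, Pvalb, Ap2b1, Rpl41, Lep and Chrne. Ica1, an islet cell autoantigen gene, was at 442, 114 and 476, so replicate b lay far below the others. Cyp4v3, a fatty acid hydroxylase, was at 174, 228 and 537, with replicate c high. Lep, which encodes leptin, was at 231, 495 and 436, with replicate a low. No 1 array was the odd one in all of them.

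**Figure D4:**
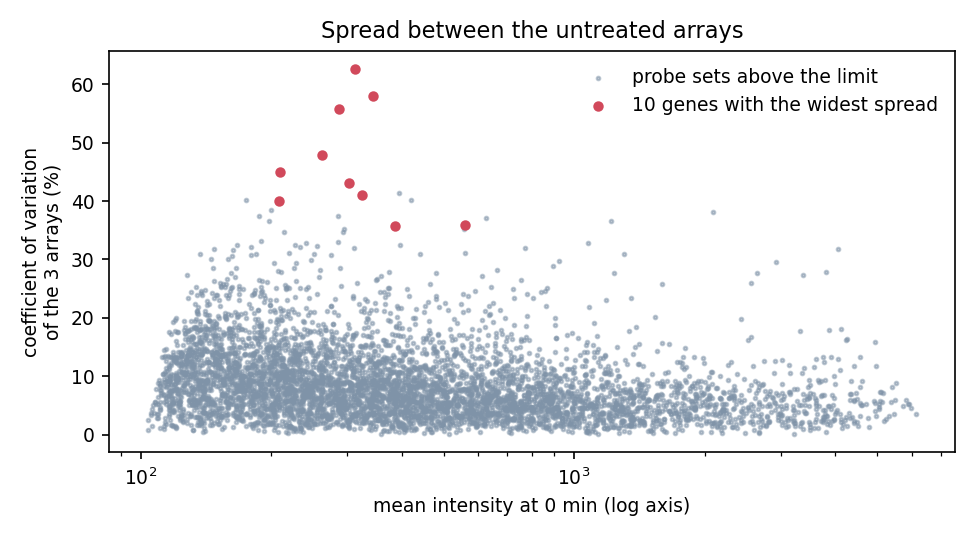
Coefficient of variation of the 3 untreated arrays (percent) against mean intensity (log axis) for the 5513 probe sets above the limit, with the 10 genes of widest log2 spread in red. Most probe sets lie under 20%, and the median falls from 9.76% in the lowest 1379 to 5.20% in the highest 1378.

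The untreated arrays also serve as the start from which differences at 30 and 60 min of PTH were measured. With no culture kept for those times without hormone, effects of hormone and of time cannot be told apart. Differences are on the scale log2(intensity + 11.8), which understates change at low intensity, with limma's moderated test and Benjamini-Hochberg adjustment over 7884 probe sets. At 30 min 74 probe sets, 0.939%, passed an adjusted p of 0.05, with 0.482% higher and 0.457% lower. At 60 min 1031 passed, 13.1%, with 4.35% higher and 8.73% lower. Under 75th percentile scaling the split was 40 higher and 61 lower at 30 min, and 507 higher and 649 lower at 60 min, against 38 and 36, and 343 and 688. Under quantile normalization it was 52 and 93 at 30 min. Both comparisons use the same untreated arrays and are not independent of each other. With 3 arrays against 3, an exact permutation test cannot give a p under 0.1.

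The 60 min calls rested on each of the untreated arrays. Without 0 min replicate a 69 probe sets passed, without b 100 and without c 244. Leaving out 60 min replicate a gave 1588, b 542 and c 645. At 30 min, leaving out the untreated replicates gave 16, 18 and 23 (a, b and c in turn) and leaving out the 30 min replicates gave 308, 23 and 17. Removing 60 min replicate b or c gave 574 or 37 calls at 30 min.

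Genes here are counted by their brightest probe set, by which 272 of 5930 tested genes were higher at 60 min (4.59%) and 545 lower (9.19%). At 30 min 0.573% of the tested genes were higher and 0.489% lower. Of the lists, immediate-early genes had the largest share, 11 of 25 higher at 30 min (44%) and 13 at 60 min (52%). All lists were chosen with earlier results of these data known, so their shares do not test them. Fos differed by 4.05 at 30 min (SE 0.19, limma adjusted p = 3.44e-06), and no alternative ended the call. Of 38 proliferation genes 7 were higher at 60 min (18.4%) and 2 lower (5.26%). Among these only Mcm3 and Tk1 kept the call whichever untreated array was left out. The bright matrix genes Ogn, Postn and Omd, fell from their untreated level. Of 33 glycoprotein genes tested 1 was lower at 30 min, and 3 were lower at 60 min (9.09%), close to the share over all genes, so the count sets nothing apart. None was higher, and the list median was -0.08 at 60 min against 0.04 over all genes. Ogn went from 4366, 4223 and 4110 to 1998, 1566 and 1697 at 60 min. Its difference was -1.27 (SE 0.21, limma adjusted p = 0.00912), and the call was lost without 0 min replicate a. Its other probe set differed by -0.18 (limma adjusted p = 0.660). Postn went from 3851, 3872 and 3976 to 2235, 1180 and 1709, a difference of -1.23 (SE 0.26, limma adjusted p = 0.0179). Omd went to 547, 423 and 664, a difference of -1.93 (SE 0.38, limma adjusted p = 0.0145). Omd lost its call when untreated replicate a or b was left out, and Postn when any of the 3 was.

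The type I collagen genes were not lower. Col1a1 stood at 0.56 at 60 min (limma adjusted p = 0.0499), a call lost under 12 alternatives, and its other probe set at 0.08 (limma adjusted p = 0.692). Col1a2 stood at 0.17 and Bgn at 0.37, neither past the threshold (limma adjusted p = 0.251 and 0.0603). By their brightest probe sets, 0 of 14 tested genes of collagen processing and 0 of 24 of adhesion passed at either time by limma, with 1 and 2 of them at an unadjusted p under 0.05 at 30 min and 4 and 8 at 60 min. Of all tested genes 0.573% were higher and 0.489% lower at 30 min, and 4.59% and 9.19% at 60 min. Other probe sets of 3 adhesion genes did pass at 60 min, those of Itgav at -0.65, Vcam1 at -0.88 and Cd151 at 0.68 (limma adjusted p = 0.0438, 0.0288 and 0.0290).

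Among receptors and their pathway, 5 of 35 growth factor and cytokine receptors were lower at 60 min, 14.3% against 9.19% of all genes. None was higher, against 4.59%. With so few genes these counts set nothing apart. Ddr2, a collagen receptor kinase, went from 674, 595 and 663 to 418, 302 and 319, a difference of -0.88 (SE 0.15, limma adjusted p = 0.00912), lost without 0 min replicate a. Osmr went to 882, 589 and 846, a difference of -0.60 (limma adjusted p = 0.0309), lost when any untreated array was left out. The receptor genes Fas, Il13ra1 and Il15ra lost their calls in the same way. The inhibitory subunit gene Gnai3 fell to 1069, 855 and 1139, a difference of -0.91 (SE 0.12, limma adjusted p = 0.00590), and no alternative ended the call. Gnb2 rose to 3115, 3816 and 3174, a difference of 0.47 (limma adjusted p = 0.0188), lost when any untreated array was left out. By their brightest probe sets, 1 of 36 tested PTH and cAMP genes was thus higher at 60 min (2.78%) and 1 lower (2.78%), against 4.59% and 9.19% of all genes. Other probe sets of 3 more genes passed at 60 min. Those of Plcb1, with untreated means of 128 and 53.5, differed by -1.32 and -0.76 (limma adjusted p = 0.0205 and 0.0403). The brightest of Plcb1, with a mean of 1322, differed by 0.15 (limma adjusted p = 0.565). That of Gna11 differed by 0.85 (limma adjusted p = 0.0412), and its brightest by 0.34 (limma adjusted p = 0.0788). That of Gnb1, a beta subunit, differed by 0.59 (limma adjusted p = 0.0159), and its brightest by 0.004 (limma adjusted p = 0.986).

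Among transcription factors 7 of 51 were higher at 60 min, 13.7% against 4.59% of all genes, and 1 was lower, 1.96% against 9.19%. The list was chosen with earlier results of these data known, so these shares do not test it. Snai1, a mesenchymal repressor related to Snai2, rose from 360, 275 and 321 to 659, 635 and 551, a difference of 0.93 (SE 0.13, limma adjusted p = 0.00693). Id1, an inhibitor of helix-loop-helix factors, rose from 243, 217 and 250 to 523, 536 and 551, a difference of 1.15 (SE 0.11, limma adjusted p = 0.00103). Neither call was ended by any alternative. Dlx5 rose from 289, 357 and 308 to 446, 479 and 455, a difference of 0.52 (limma adjusted p = 0.0247), lost when any untreated array was left out. Cebpb and Msx2 lost their calls in the same way, and Cebpd and Id3 lost theirs without untreated replicate a or b.

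Secreted factors had 2 of 44 tested members higher at 60 min (4.55%) and 6 lower (13.6%), near the 4.59% and 9.19% of all genes. Kitl fell from 1549, 1473 and 1402 to 639, 445 and 533, a difference of -1.45 (SE 0.22, limma adjusted p = 0.00733) that no alternative ended. Angpt1, the ligand of the endothelial receptor Tie2, fell from 339, 265 and 319 to 84.6, 51.2 and 120, a difference of -1.78 (SE 0.31, limma adjusted p = 0.00958), lost without 0 min replicate a. Tnfrsf11b fell to 237, 107 and 204, a difference of -1.25 (limma adjusted p = 0.0144), lost when any untreated array was left out. These 3 were named because they passed, so the separation of their untreated and 60 min values is no further evidence.

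**Figure D5:**
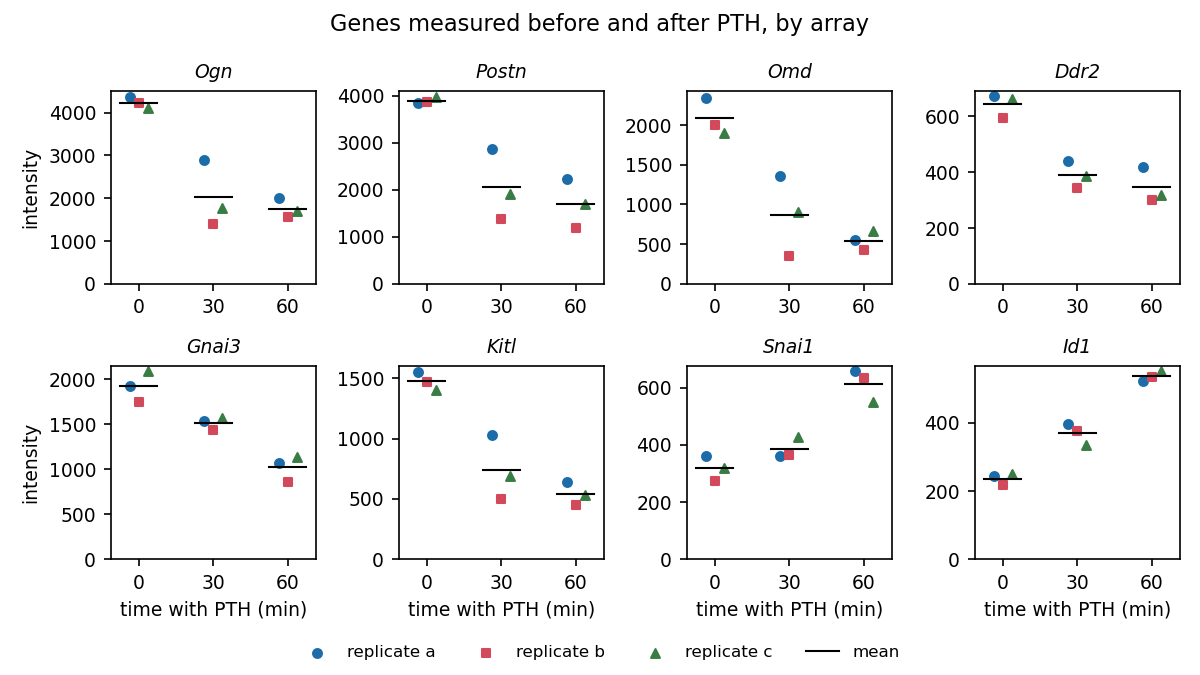
Intensity of 8 genes on each array at 0, 30 and 60 min of PTH, with replicates a, b and c as circle, square and triangle and the mean of the 3 as a line; each axis starts at 0. At 60 min all arrays of Ogn, Postn, Omd, Ddr2, Gnai3 and Kitl lie below, and those of Snai1 and Id1 above, their untreated values. The 8 genes were chosen among those that passed at 60 min.

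Among other lineages, 1 of 15 skeletal muscle and 1 of 12 smooth muscle genes tested were higher at 60 min. These shares were 6.67% and 8.33%, against 4.59% of all genes. The genes were the muscle creatine kinase gene Ckm with 0.86 (limma adjusted p = 0.0197) and the actin gene Actg2 with 0.51 (limma adjusted p = 0.0288). Ckm was below the limit before hormone, at 56.3, 62.6 and 41.3, and its mean at 60 min was 106. Both calls were lost when any untreated array was left out, and Actg2 was read by a shared probe set. No gene of the cartilage, adipocyte, endothelial, leukocyte, erythroid, osteoclast, epithelial or neural lists passed by limma at 30 or 60 min, out of 4 to 14 tested per list. Of all tested genes 0.573% were higher and 0.489% lower at 30 min, and 4.59% and 9.19% at 60 min. With so few genes tested, no single list is set apart by these counts. At an unadjusted p under 0.05 these lists held 0 to 3 genes each. The summed intensity of the leukocyte list was 2095 to 2412 at 0 min, 2430 to 2752 at 30 min and 2284 to 2919 at 60 min, and its part in the other changes was not tested.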

How the data were processed

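Intensity values were used as deposited by the authors, linear, 1 per probe set and array. Their summary method and software: not given in the sources used here. All deposited values above 1000 (8744) lay on steps of 0.001 in log2, to within 0.02 of a step. The 2% trimmed means of the arrays were 250.1 to 250.2, so no further scaling was applied. Probe sets were named from the platform annotation: 10833 had 1 symbol, 396 several and 1193 none, and 10817 matched an Entrez entry of GRCm38.p6. No gene was named from a set with several symbols.

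Intensities were described linearly at 0 min. For changes, log2(intensity + 11.8), the constant being the 20th percentile, was fitted with limma 3.58.1 in R 4.3.3 (lmFit, eBayes with trend, all 9 arrays, 6 residual degrees of freedom, prior 4.68), for 7884 probe sets above 44.69 (40th percentile) on at least 3 arrays. The fit was tested on simulated data. Plots used matplotlib 3.10.9.

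Named genes were the 20 brightest, the 6 markers, up to 6 brightest members per list (4 for other cell types) with defining members below the limit, the 10 of widest log2 spread, and up to 4 called members per list. The members and the 27 lists (792 of 968 names measured) were chosen with earlier results of these data known. Same-letter arrays deviated together with correlations of -0.128 to 0.304, and different-letter arrays with -0.266 to 0.179. Same-letter values with the untreated arrays were -0.128 to 0.078. Between 30 and 60 min they were 0.304, 0.251 and 0.022 for a, b and c. The letters were not taken to pair arrays, which these values do not settle. Alternatives covered limit, scaling, constant, filter, trend, replicate block and each array left out.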

Additional observations from a re-analysis of the deposited data

How the results depend on the processing

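The number of probe sets above the limit (5513) ranged from 4184 to 7265 over other limits, scalings and arrays left out, and the median coefficient of variation from 5.29% to 8.53%. Of 308 list counts 37 moved by more than 1.5 times, mostly with the limit. At 30 min the 74 calls became 179 with a constant at the 50th percentile, 39 with no filter, 145 under quantile normalization, 40 without a variance trend and 389 with only the 30 and 0 min arrays; leaving out single arrays gave 16 to 574. At 60 min the 1031 calls became 652 with no filter, and 69 to 1588 with single arrays left out. With the letter as a replicate block, 259 probe sets passed at 30 min and 1446 at 60 min, though the correlations did not settle whether the letters pair arrays. Of 1471 recomputed calls of list genes 303 were lost and 0 reversed, mainly without an untreated array (57, 53 and 42 of 82 without a, b and c). Counting only probe sets with 1 symbol and no suffix (4210), and asking that all probe sets of a gene be above, were chosen after seeing the data. The causes of these shifts were not tested. Signal near the limit is bounded by background.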
